A study of Homo sapiens with 24 samples.

Results

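The ubiquitin-conjugating enzymes named UBE2 were followed as their mRNAs decayed in cells that carried guides against CNOT3 or control guides. Members were all genes of the deposited table whose symbol is UBE2 followed by letters and an optional number and whose conversion was above 0 in all 4 libraries at the start of the chase. Of 36 such symbols among 19798 genes, 33 met the rule, and UBE2L6, UBE2QL1 and UBE2U did not. All 33 passed the filter on low values that left 10731 genes for testing. SLAM-seq followed RNA decay in HEK293T, a human embryonic kidney cell line. The sgCNOT3 cells carried lentiCRISPR_v2 with either of a pair of CNOT3 guides, which target a CCR4-NOT deadenylase subunit, and the sgNT cells carried a pair of non-targeting guides, so both genotypes went through transduction and puromycin selection. All groups received 75 µM 4-thiouridine over 24 h to label RNA, the medium was renewed every 3 h, and 10 mM UTP then started a chase that was sampled at 0, 1, 2, 4, 8 and 12 h, with 2 libraries per genotype and time and 24 in all. Which library received which guide is not given, and nothing says that replicates were separate cultures. The spread behind each p-value is that between libraries and may be technical.

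Ubiquitin is passed from an activating enzyme (E1) to the catalytic cysteine of a conjugating enzyme (E2), and a ligase (E3) then brings the loaded E2 to the substrate. The E2 largely sets which kind of ubiquitin chain is built, and a few E2s carry related modifiers such as NEDD8 instead. CCR4-NOT shortens poly(A) tails, which commits most mRNAs to decay. The study asked which features of translated mRNAs bring CNOT3 to ribosomes. It reported that CGG, CGA and AGG arginine codons in the peptidyl (P) site of the ribosome were the strongest signal. The libraries read the 3' ends of polyadenylated RNA. Alkylated 4-thiouridine is copied as C, and a fall in T-to-C conversion over the chase follows the loss of RNA made before it. The values are therefore shares of converted signal and do not measure how much of an mRNA a cell held, and the number of reads behind each value is unknown.

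The coding sequences of the family held a lower median share of these arginine codons than all tested genes. CGG, CGA and AGG made up a median of 2.35% of codons in the 33 members and 2.85% in the 10697 tested genes with a coding sequence in GENCODE release 44 (GRCh38), and 28 members were under the median of all genes. The other arginine codons were also fewer, with a median share of 2.25% in the members and 2.64% in all genes. Codons ending in G or C made up a median of 45.1% in the members and 56.85% in all genes. UBE2B had the highest share of CGG, CGA and AGG, 5.26% (percentile 92.3 of all genes), and UBE2E1 the lowest, 1.04%. The 2 members with the highest slope differences described below, UBE2R2 and UBE2Z, held 2.10% and 2.82%. The 30-codon stretches richest in these codons are shown for UBE2R2 and UBE2Z, for UBE2B, and for the paralogues UBE2D2 and UBE2D3, which were both slower, with CGG, CGA and AGG codons in capitals.
UBE2R2: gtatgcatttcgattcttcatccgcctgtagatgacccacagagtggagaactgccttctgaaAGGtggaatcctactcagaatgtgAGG
UBE2Z: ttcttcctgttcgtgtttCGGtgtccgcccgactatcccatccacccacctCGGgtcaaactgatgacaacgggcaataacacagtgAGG
UBE2B: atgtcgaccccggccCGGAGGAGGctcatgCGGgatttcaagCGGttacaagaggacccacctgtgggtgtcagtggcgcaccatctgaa
UBE2D2: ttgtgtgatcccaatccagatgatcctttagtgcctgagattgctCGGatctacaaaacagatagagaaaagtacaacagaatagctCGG
UBE2D3: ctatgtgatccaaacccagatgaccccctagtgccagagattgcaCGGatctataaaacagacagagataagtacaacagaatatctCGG
The UBE2R2 stretch covers codons 92 to 121 and is spliced from 2 exons within chr9:33900183-33911964 on the plus strand. The UBE2Z stretch covers codons 147 to 176 in 1 exon at chr17:48912882-48912971 on the plus strand. The UBE2B stretch covers codons 1 to 30 from 2 exons within chr5:134371596-134374428 on the plus strand. The UBE2D2 and UBE2D3 stretches both cover codons 110 to 139, lie within chr5:139623391-139626774 on the plus strand and chr4:102797442-102799477 on the minus strand, and hold 2 CGG codons each at the same places. UBE2D2 and UBE2D3 coding sequences were 86.6% identical.

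At the start of the chase a median of 41.4% of UBE2 signal was converted in sgCNOT3 and 43.8% in sgNT, taken over the means of the 33 members. UBE2C was among the most converted, with 75.1 and 74.2% in sgCNOT3 and 72.1 and 71.9% in sgNT. UBE2M was among the least, with 28.8 and 21.4% in sgCNOT3 and 18.6 and 19.2% in sgNT. After 12 h the median was 12.7% in sgCNOT3 and 9.44% in sgNT. In 23 of 33 members (69.7%) both sgCNOT3 libraries lay above both sgNT libraries at 12 h, beside 51.9% of all tested genes. At 0 h both sgCNOT3 libraries lay below both sgNT libraries in 11 members (33.3%), beside 25.9% of all tested genes. The median of all tested genes ran between 32.0 and 35.9% at 0 h in the libraries of both genotypes. The sgCNOT3 libraries at 2 h stood apart from each other, with medians of 29.1 and 18.8% over all tested genes and a Spearman correlation across genes of 0.338, against 0.529 to 0.765 for the other pairs of replicates. CNOT3 itself had a slope difference of 0.0781 per hour (SE 0.0772, adjusted p = 0.503), which does not check the knockout, since a conversion ratio does not measure the amount of RNA.

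Decay was compared as the slope of log2 conversion over chase time, so that positive slope differences stand for slower loss of conversion under sgCNOT3 than under sgNT. Of the 33 UBE2 mRNAs, 10 were slower in sgCNOT3 (30.3%) and 0 were faster, against 1 slower and 3 faster once libraries were centred on their medians, by limma with Benjamini-Hochberg adjustment over all tested genes. Over all tested genes 21.7% were slower and 0.345% faster, and the median slope difference was 0.0581 per hour, beside 0.0518 for the UBE2 members. At an unadjusted p under 0.05, 16 of 33 members were slower and 0 faster, beside 33.3% slower and 1.13% faster over all tested genes. UBE2R2 and UBE2Z had the highest slope differences of the family and lay at percentiles 82.0 and 77.5 of all genes. The other members called slower lay between percentiles 45.9 (UBE2D3) and 56.9 (UBE2L3), and UBE2D3, UBE2T and UBE2G1 were below the median gene. Centring subtracts the median of each library, so slower and faster are then relative to the median gene. Centring put the median slope difference of all genes at -0.00763. The calls were then UBE2R2 as slower and UBE2S, UBE2C and UBE2V2 as faster, beside 586 slower and 654 faster genes in all. The count of 10 became 3 without sgNT 12 h replicate 2 and 4 without replicate 1 of that group, 5 and 6 without sgCNOT3 0 h replicate 2 and replicate 1, and 6 without sgCNOT3 8 h replicate 2, and with a single replicate number it was 1 or 0.

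**Figure D1:**
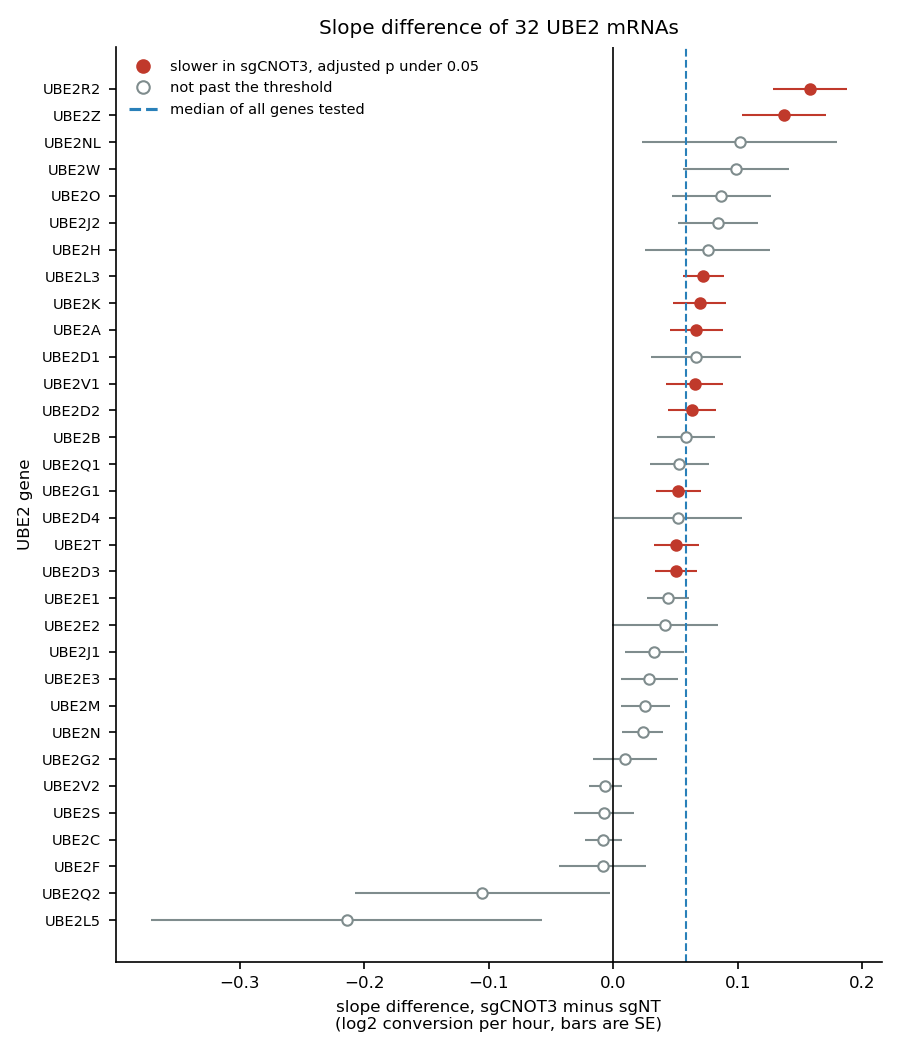
Slope difference (sgCNOT3 minus sgNT, log2 conversion per hour) of each of 32 UBE2 mRNAs, with its SE; filled points passed an adjusted p of 0.05 and the dashed line is the median of all tested genes, 0.0581. The 10 filled points lie between 0.0503 (UBE2D3) and 0.158 (UBE2R2), and 21.7% of all tested genes were slower. After centring of the libraries, relative to the median gene, only UBE2R2 was still called slower, while UBE2S, UBE2C and UBE2V2 were called faster.

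The E2s that build chains read by the proteasome, several of them at the endoplasmic reticulum, included 3 of the 10 slower members. Over all tested genes 21.7% were slower. Of the 3, only UBE2R2 was called by limma with centred libraries (0.0925, adjusted p = 0.0271), and UBE2G1 was then below 0. All gene positions here are of GRCh38. UBE2R2 (ENSG00000107341.5, chr9:33817160-33920399, plus strand) extends ubiquitin chains on substrates of cullin ligases. UBE2R2 conversion in the sgCNOT3 libraries was 33.8 and 24.8% (0 h), 34.8 and 31.9% (1 h), 25.6 and 21.8% (2 h), 21.5 and 21.3% (4 h), 19.6 and 19.3% (8 h) and 5.53 and 9.08% (12 h). In sgNT, UBE2R2 conversion was 35.98 and 34.8% (0 h), 28.5 and 30.7% (1 h), 22.8 and 28.5% (2 h), 22.1 and 19.9% (4 h), 8.02 and 7.79% (8 h) and 2.25 and 2.14% (12 h). For UBE2R2, both sgCNOT3 libraries lay below both sgNT libraries at 0 h and above them at 1, 8 and 12 h, and the genotypes overlapped at 2 and 4 h. The slope of UBE2R2 differed by 0.158 per hour (SE 0.0297, adjusted p = 0.00058), and it was called in 24 of 24 leave-outs of 1 library. The fitted half-life of UBE2R2 was 7.70 h in sgCNOT3 and 4.02 h in sgNT.

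UBE2K (ENSG00000078140.14, chr4:39698109-39782792, plus strand) builds chains of the same kind. UBE2K conversion in the sgCNOT3 libraries was 29.5 and 36.6% (0 h), 35.99 and 32.8% (1 h), 30.5 and 25.9% (2 h), 33.3 and 29.7% (4 h), 27.7 and 27.8% (8 h) and 11.8 and 14.5% (12 h). In sgNT, UBE2K conversion was 46.2 and 41.9% (0 h), 43.3 and 39.01% (1 h), 35.3 and 37.9% (2 h), 36.7 and 30.9% (4 h), 18.1 and 20.7% (8 h) and 11.2 and 10.5% (12 h). For UBE2K, both sgCNOT3 libraries lay below both sgNT libraries at 0, 1 and 2 h and above them at 8 and 12 h, and the genotypes overlapped at 4 h. The slope differed by 0.0695 per hour (SE 0.0212, adjusted p = 0.0214), and the fitted half-life was 12.98 h in sgCNOT3 and 6.70 h in sgNT. UBE2G1 (ENSG00000132388.13, chr17:4269259-4366675, minus strand) acts with cullin ligases built on CUL4. UBE2G1 conversion in the sgCNOT3 libraries was 47.6 and 41.5% (0 h), 42.4 and 41.4% (1 h), 43.01 and 31.8% (2 h), 32.2 and 27.6% (4 h), 18.1 and 16.7% (8 h) and 7.98 and 9.60% (12 h). In sgNT, UBE2G1 conversion was 55.5 and 52.6% (0 h), 49.6 and 48.6% (1 h), 41.3 and 47.8% (2 h), 40.3 and 33.8% (4 h), 15.3 and 18.9% (8 h) and 6.995 and 6.55% (12 h). For UBE2G1, both sgCNOT3 libraries lay below both sgNT libraries at 0, 1 and 4 h and above them at 12 h, and the genotypes overlapped at 2 and 8 h. UBE2G1 had a slope difference of 0.0522 per hour (SE 0.0179, adjusted p = 0.0395), with a half-life of 5.68 h in sgCNOT3 and 5.004 h in sgNT. The call of UBE2G1 was lost in 10 of 24 leave-outs of 1 library, over which the slope difference ran between 0.0406 and 0.0642. The other 3 of these E2s, UBE2G2, UBE2J1 and UBE2J2, which work in the removal of misfolded proteins from the endoplasmic reticulum, had slope differences of 0.0096 (SE 0.0257), 0.0330 (SE 0.0234) and 0.0841 (SE 0.0324) and were not called.

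Of the E2s of ubiquitin-like modifiers, UBE2Z was slower, a call not kept with centred libraries (0.0713, adjusted p = 0.092), and UBE2M and UBE2F were not called. UBE2Z (ENSG00000159202.18, chr17:48908407-48929056, plus strand) takes ubiquitin or FAT10 from the activating enzyme UBA6. UBE2Z conversion in the sgCNOT3 libraries was 47.9 and 36.8% (0 h), 40.5 and 38.1% (1 h), 30.4 and 24.7% (2 h), 27.5 and 19.8% (4 h), 21.2 and 33.01% (8 h) and 9.79 and 10.8% (12 h). In sgNT, UBE2Z conversion was 48.1 and 47.2% (0 h), 50.4 and 38.8% (1 h), 24.2 and 22.9% (2 h), 28.7 and 26.6% (4 h), 12.4 and 9.06% (8 h) and 3.17 and 5.52% (12 h). For UBE2Z, both sgCNOT3 libraries lay above both sgNT libraries at 2, 8 and 12 h, and the genotypes overlapped at 0, 1 and 4 h. The slope difference of UBE2Z was 0.137 per hour (SE 0.0337, adjusted p = 0.0053), and it too was called in 24 of 24 leave-outs. Its half-life was 7.55 h in sgCNOT3 and 3.71 h in sgNT. UBE2M, an E2 of NEDD8, barely lost conversion: the 12 h mean was 95.2% of the 0 h mean in sgCNOT3 and 81.0% in sgNT, and its half-life reached the 24 h limit in both. UBE2F, the other NEDD8 E2, had a half-life of 8.30 h in sgCNOT3 and 10.9 h in sgNT, but the replicate numbers went opposite ways, with 6.56 h in sgCNOT3 and 12.7 h in sgNT for replicate 1 and 13.6 h in sgCNOT3 and 9.36 h in sgNT for replicate 2.

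UBE2L3 (ENSG00000185651.16, chr22:21549447-21624034, plus strand) serves HECT and RBR ligases, which take the ubiquitin onto their own cysteine. UBE2L3 conversion in the sgCNOT3 libraries was 37.6 and 41.3% (0 h), 38.02 and 41.3% (1 h), 31.1 and 33.8% (2 h), 26.2 and 27.3% (4 h), 19.9 and 20.4% (8 h) and 9.17 and 10.9% (12 h). In sgNT, UBE2L3 conversion was 41.9 and 35.3% (0 h), 39.7 and 36.9% (1 h), 27.3 and 27.1% (2 h), 26.4 and 21.9% (4 h), 12.5 and 12.7% (8 h) and 5.19 and 5.45% (12 h). For UBE2L3, both sgCNOT3 libraries lay above both sgNT libraries at 2, 8 and 12 h, and the genotypes overlapped at 0, 1 and 4 h. The slope difference was 0.0724 per hour (SE 0.0166, adjusted p = 0.0031), called in 24 of 24 leave-outs but not with centred libraries (0.00673, adjusted p = 0.863), and the half-life was 6.75 h in sgCNOT3 and 4.71 h in sgNT. UBE2L5 (ENSG00000236444.5, chr13:30422488-30429758, plus strand) is a near copy of UBE2L3, and 97.6% of the aligned bases of its transcript and the UBE2L3 coding sequence were identical. The 3' ends, which the libraries read, were not compared, so whether reads of the pair can be told apart is not known. UBE2L5 conversion in the sgCNOT3 libraries was 57.9 and 51.3% (0 h), 20 and 13.6% (1 h), 42.9 and 2.78% (2 h), 80 and 18.2% (4 h), 46.2 and 13.8% (8 h) and 0 and 53.3% (12 h). In sgNT, UBE2L5 conversion was 25.8 and 29.2% (0 h), 28 and 6.25% (1 h), 25 and 87.5% (2 h), 8.33 and 18.8% (4 h), 19.4 and 33.3% (8 h) and 20 and 50% (12 h). For UBE2L5, both sgCNOT3 libraries lay above both sgNT libraries at 0 h, and the genotypes overlapped at 1, 2, 4, 8 and 12 h. The values had no order by time in either genotype, 1 of 24 was 0, and the fitted slope in sgNT was above 0 (0.0315 per hour). UBE2L5 had the lowest slope difference, -0.214 per hour (SE 0.157, adjusted p = 0.354), and its value lay between -0.368 and 0.0214 when 1 library was left out.

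Among the E2s of DNA repair and chromatin, UBE2A and UBE2T were slower, but neither was called with centred libraries, where UBE2T was below 0. UBE2A (ENSG00000077721.17, chrX:119474802-119591083, plus strand) is one of the human RAD6 homologues that ubiquitylate histone H2B and PCNA. UBE2A conversion in the sgCNOT3 libraries was 33.98 and 25.1% (0 h), 26.9 and 30.1% (1 h), 30.6 and 31.98% (2 h), 29.7 and 33.9% (4 h), 24.3 and 30.3% (8 h) and 14.7 and 16.8% (12 h). In sgNT, UBE2A conversion was 48.3 and 41.3% (0 h), 47.3 and 39.4% (1 h), 35.99 and 36.8% (2 h), 38.5 and 32.02% (4 h), 22.8 and 28.6% (8 h) and 14.3 and 13.2% (12 h). For UBE2A, both sgCNOT3 libraries lay below both sgNT libraries at 0, 1 and 2 h and above them at 12 h, and the genotypes overlapped at 4 and 8 h. The slope difference was 0.0665 per hour (SE 0.0212, adjusted p = 0.0273), and the half-life was 18.6 h in sgCNOT3 and 8.30 h in sgNT. UBE2T (ENSG00000077152.12, chr1:202331544-202341984, minus strand) is the E2 of the Fanconi anaemia pathway. UBE2T conversion in the sgCNOT3 libraries was 42.96 and 44.3% (0 h), 53.1 and 46.9% (1 h), 39.3 and 44.8% (2 h), 26.8 and 27.8% (4 h), 12.7 and 15.7% (8 h) and 5.38 and 8.42% (12 h). In sgNT, UBE2T conversion was 58.1 and 55.4% (0 h), 58.5 and 50.95% (1 h), 40.98 and 39.3% (2 h), 28.98 and 32.3% (4 h), 12.05 and 12.1% (8 h) and 5.38 and 5.09% (12 h). For UBE2T, both sgCNOT3 libraries lay below both sgNT libraries at 0 and 4 h and above them at 8 h, and the genotypes overlapped at 1, 2 and 12 h. UBE2T had a slope difference of 0.0505 per hour (SE 0.0181, adjusted p = 0.0493), with a half-life of 4.83 h in sgCNOT3 and 3.80 h in sgNT, and 19 of 24 leave-outs of 1 library ended the call. UBE2B, the second RAD6 homologue, had a slope difference of 0.0584 per hour (SE 0.0230, adjusted p = 0.0731).

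The UBE2D and UBE2E enzymes work with many RING ligases. Of these 7 members 2 were slower, beside 21.7% of all tested genes. Neither was called with centred libraries, where both were below 0. UBE2D2 (ENSG00000131508.17, chr5:139526431-139628434, plus strand) gave the following values. UBE2D2 conversion in the sgCNOT3 libraries was 45.5 and 45.5% (0 h), 47.98 and 43.5% (1 h), 42.03 and 45.5% (2 h), 41.6 and 46.04% (4 h), 34.96 and 28.9% (8 h) and 17.5 and 17.1% (12 h). In sgNT, UBE2D2 conversion was 45.8 and 48.97% (0 h), 44.9 and 48.02% (1 h), 49.9 and 45.1% (2 h), 41.4 and 37.1% (4 h), 23.4 and 23.7% (8 h) and 9.91 and 12.3% (12 h). For UBE2D2, both sgCNOT3 libraries lay below both sgNT libraries at 0 h and above them at 4, 8 and 12 h, and the genotypes overlapped at 1 and 2 h. The UBE2D2 slope difference was 0.0632 per hour (SE 0.0195, adjusted p = 0.0228), the call was kept in 22 of 24 leave-outs, and its half-life was 10.8 h in sgCNOT3 and 7.05 h in sgNT. UBE2D3 (ENSG00000109332.20, chr4:102794383-102868896, minus strand) was the one member called lower in sgCNOT3 at 0 h. UBE2D3 conversion in the sgCNOT3 libraries was 38.3 and 36.96% (0 h), 43.2 and 43.03% (1 h), 38.6 and 43.3% (2 h), 35.9 and 36.1% (4 h), 25.2 and 24.96% (8 h) and 12.5 and 15.7% (12 h). In sgNT, UBE2D3 conversion was 49.8 and 48.6% (0 h), 51.1 and 47.4% (1 h), 45.4 and 45.8% (2 h), 40.1 and 36.9% (4 h), 21.98 and 21.2% (8 h) and 11.3 and 12.2% (12 h). For UBE2D3, both sgCNOT3 libraries lay below both sgNT libraries at 0, 1, 2 and 4 h and above them at 8 and 12 h. The UBE2D3 slope difference was 0.0503 per hour (SE 0.0165, adjusted p = 0.0323), the call was kept in 17 of 24 leave-outs, and its half-life was 9.47 h in sgCNOT3 and 6.51 h in sgNT. The other 5, UBE2D1, UBE2D4, UBE2E1, UBE2E2 and UBE2E3, had slope differences between 0.0290 (UBE2E3) and 0.0661 (UBE2D1) and were not called.

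UBE2N pairs with UBE2V1 or UBE2V2, which lack the catalytic cysteine, to build chains that act in signalling and DNA repair. Of these E2s only UBE2V1 was called. Centred libraries put UBE2V1 at -0.00030 and called UBE2V2 faster relative to the median gene. UBE2V1 (ENSG00000244687.13, chr20:50081124-50115959, minus strand) gave these values. UBE2V1 conversion in the sgCNOT3 libraries was 28.7 and 29.5% (0 h), 35.9 and 26.4% (1 h), 29.6 and 22.3% (2 h), 25.8 and 27.7% (4 h), 24.2 and 27.5% (8 h) and 14.2 and 14.6% (12 h). In sgNT, UBE2V1 conversion was 34.2 and 32.4% (0 h), 28.9 and 24.7% (1 h), 27.2 and 29.3% (2 h), 24.6 and 20.9% (4 h), 15.3 and 22.5% (8 h) and 8.46 and 9.46% (12 h). For UBE2V1, both sgCNOT3 libraries lay below both sgNT libraries at 0 h and above them at 4, 8 and 12 h, and the genotypes overlapped at 1 and 2 h. UBE2V1 had a slope difference of 0.0654 per hour (SE 0.0228, adjusted p = 0.0423), with a half-life of 15.7 h in sgCNOT3 and 8.01 h in sgNT, and 14 of 24 leave-outs of 1 library ended the call. UBE2N had a slope difference of 0.0235 (SE 0.0164) and UBE2V2 one of -0.0064 (SE 0.0130). UBE2NL, a copy of UBE2N, could not be read with confidence: its values ran between 22.2 and 100% in sgCNOT3 and between 10.3 and 100% in sgNT, and no half-life was kept. Of the aligned bases of its transcript and the UBE2N coding sequence 95.0% were identical, but the 3' ends were not compared.

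**Figure D2:**
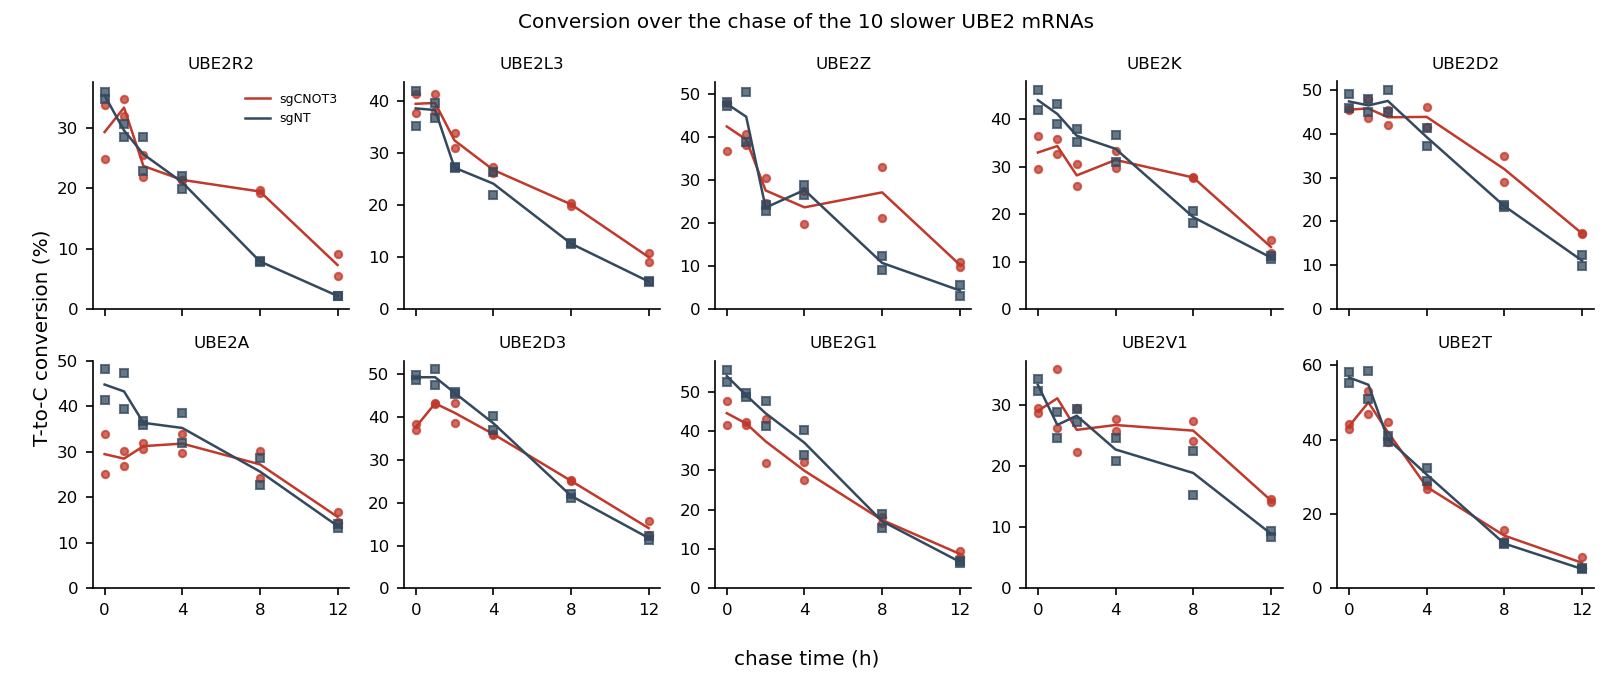
T-to-C conversion in percent against chase time in hours for the 10 slower UBE2 mRNAs; circles are sgCNOT3 libraries, squares sgNT libraries, and lines join the means of 2. In 9 of 10 (all but UBE2T) both sgCNOT3 libraries lay above both sgNT libraries at 12 h, beside 51.9% of all tested genes. In 8 of 10 (all but UBE2L3 and UBE2Z) both lay below at 0 h, beside 25.9%. Slopes fitted to these same libraries chose the 10 members. With centred libraries only UBE2R2 was called slower.

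The first and last chase times of the 10 slower members are given as a description, since slopes fitted to these same libraries chose the members. In 8 of the 10 both sgCNOT3 libraries were below both sgNT libraries at 0 h, beside 25.9% of all tested genes, and in 9 both were above at 12 h, beside 51.9%. The genotype difference at 12 h minus that at 0 h was called above 0 in 17.4% of all tested genes and below 0 in 0.615%, and in 10 and 0 of the 33 members, against 0 and 0 members with centred libraries. UBE2D3 was the only member past the threshold at 0 h, with a log2 difference of -0.38 (SE 0.09, adjusted p = 0.0257). UBE2L3 and UBE2Z overlapped at 0 h and differed at 8 and 12 h. UBE2R2, UBE2K, UBE2A, UBE2G1, UBE2V1, UBE2T and UBE2D2 did not pass the threshold at 0 h. The part that a lower start played in the slope differences was not tested.

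Contrasts at single chase times put most calls late. At 0 h 0 members were higher and 1 was lower in sgCNOT3 (all tested genes: 0.811% higher and 4.09% lower). At 1 h 1 member was higher and 0 were lower (0.923% and 2.45% of all), and at 2 h again 1 was higher and 0 were lower (1.55% and 2.48%). At 4 h UBE2M was higher and UBE2J1 lower (2.14% and 5.34%). At 8 h 11 members were higher and 0 lower, which is 33.3% of the members and 18.9% of all genes (1.98% of all were lower). At 12 h 11 were higher and 0 lower, 33.3% of the members and 31.8% of all genes (2.73% of all were lower). With centred libraries 0 members were higher and 2 lower at 8 h, and 2 were higher (UBE2H and UBE2R2) and 6 lower at 12 h (UBE2C, UBE2V2, UBE2G1, UBE2N, UBE2E3 and UBE2K), where centring put the median difference of all genes at -0.06, against 0.65 as deposited.

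UBE2D2, UBE2E1, UBE2J2, UBE2L3, UBE2R2, UBE2S and UBE2Z were higher at both 8 and 12 h. UBE2R2 differed by 1.26 (SE 0.21, adjusted p = 0.0011) at 8 h and by 1.55 (SE 0.21, adjusted p = 0.0001) at 12 h on the log2 scale. UBE2H, UBE2M and UBE2V1 passed the threshold at 12 h and not at 8 h, and UBE2K, UBE2E3, UBE2Q1 and UBE2NL at 8 h and not at 12 h. UBE2NL, which is part of the 8 h count, could not be read with confidence. Its mean conversion in sgNT was 19.4% at 8 h and 59.6% at 12 h. Of the 10 slower members, 5 were higher at 12 h and 4 (UBE2A, UBE2D3, UBE2G1 and UBE2T) were past the threshold at neither 8 nor 12 h. The 8 h count was 6 without sgCNOT3 8 h replicate 1 or sgNT 8 h replicate 1 and 7 without sgCNOT3 8 h replicate 2, and the 12 h count was 6 without sgCNOT3 12 h replicate 2.

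**Figure D3:**
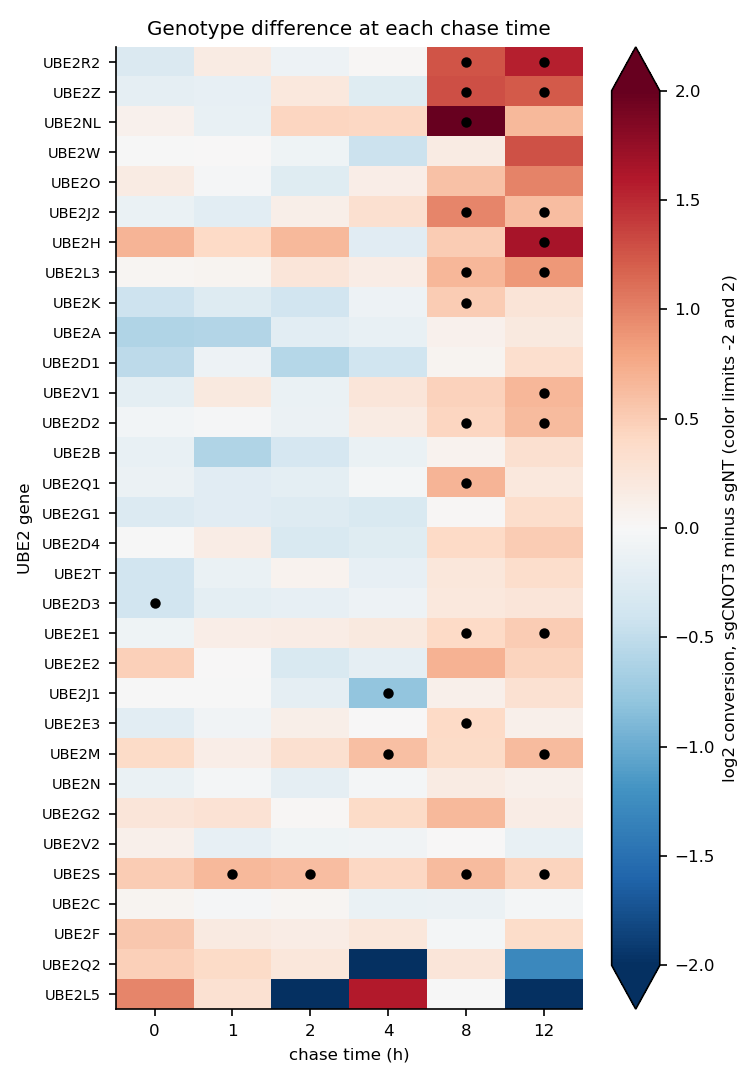
Log2 difference in conversion (sgCNOT3 minus sgNT) of 32 UBE2 mRNAs at each chase time in hours, as color, ordered by slope difference with the highest at the top; dots mark an adjusted p under 0.05. Of the dots, 21 lie at 8 and 12 h and all of those are higher in sgCNOT3 with libraries as deposited. Over all tested genes 18.9% were higher at 8 h and 31.8% at 12 h. With centred libraries 2 members were higher and 8 calls were lower at these times.

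UBE2S, UBE2C, UBE2H, UBE2M and UBE2E1 were singled out after their values were seen, as mRNAs with a difference in level or under centring but no call by slope. UBE2S extends, and UBE2C starts, the ubiquitin chains that the anaphase-promoting complex places on mitotic substrates. UBE2S conversion in the sgCNOT3 libraries was 44.8 and 39.6% (0 h), 46.04 and 45.8% (1 h), 27.7 and 28.5% (2 h), 26.7 and 26.7% (4 h), 17.2 and 17.2% (8 h) and 6.72 and 6.40% (12 h). In sgNT, UBE2S conversion was 31.1 and 27.98% (0 h), 32.4 and 26.2% (1 h), 19.8 and 16.8% (2 h), 19.2 and 20.6% (4 h), 11.3 and 10.8% (8 h) and 5.23 and 4.30% (12 h). For UBE2S, both sgCNOT3 libraries lay above both sgNT libraries at 0, 1, 2, 4, 8 and 12 h. The log2 difference of UBE2S was 0.65 (SE 0.14, adjusted p = 0.0213) at 1 h, 0.61 (SE 0.14, adjusted p = 0.0284) at 2 h, 0.63 (SE 0.14, adjusted p = 0.0078) at 8 h and 0.44 (SE 0.14, adjusted p = 0.0290) at 12 h. With centred libraries UBE2S was called at none of these 4 times. Its 1 h call was also lost without sgCNOT3 1 h replicate 1 or 2 or sgNT 1 h replicate 2, and its 2 h call without sgCNOT3 2 h replicate 1 or either sgNT 2 h library. Its slope difference was -0.00762 per hour (SE 0.0241, adjusted p = 0.853) and its half-life was 5.08 h in sgCNOT3 and 5.19 h in sgNT. UBE2C, its partner, had 75.1 and 74.2% (0 h), 26.7 and 30.8% (8 h) and 13.2 and 14.7% (12 h) in sgCNOT3 and 72.1 and 71.9% (0 h), 29.8 and 32.5% (8 h) and 13.8 and 14.8% (12 h) in sgNT. The UBE2C slope difference was -0.00793 per hour (SE 0.0146, adjusted p = 0.740). With centred libraries, however, limma put UBE2S at -0.0733 (SE 0.0221, adjusted p = 0.0336) and UBE2C at -0.0736 (SE 0.0231, adjusted p = 0.0404) per hour. These centred values are relative to the median gene, which was slower in sgCNOT3 by 0.0581 per hour as deposited. They do not show faster decay than in sgNT.

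UBE2H is the E2 of the CTLH ligase. UBE2H conversion in the sgCNOT3 libraries was 65 and 50.7% (0 h), 48.2 and 48.7% (1 h), 42.6 and 17.7% (2 h), 23.7 and 19.5% (4 h), 21.3 and 15.9% (8 h) and 5.41 and 6.88% (12 h). In sgNT, UBE2H conversion was 33.8 and 37.3% (0 h), 36.4 and 37.2% (1 h), 16.6 and 18.1% (2 h), 27.2 and 23.3% (4 h), 11.1 and 14.7% (8 h) and 1.58 and 1.86% (12 h). For UBE2H, both sgCNOT3 libraries lay above both sgNT libraries at 0, 1, 8 and 12 h, and the genotypes overlapped at 2 and 4 h. The 12 h log2 difference was 1.65 (SE 0.31, adjusted p = 0.0011). The UBE2H slope difference was 0.0760 per hour (SE 0.0502, adjusted p = 0.296), while the fitted half-life was 3.47 h in sgCNOT3 and 4.55 h in sgNT, so the slope and the exponential fit had opposite signs. UBE2M was higher by 0.61 (SE 0.16, adjusted p = 0.0377) at 4 h and by 0.63 (SE 0.16, adjusted p = 0.0087) at 12 h, with 22.9 and 24.9% in sgCNOT3 and 14.1 and 16.5% in sgNT at 12 h. UBE2E1, with a half-life of 20.6 h in sgCNOT3 and 11.4 h in sgNT, was higher by 0.51 (SE 0.09, adjusted p = 0.00055) at 12 h, and its slope difference of 0.0437 (SE 0.0170, adjusted p = 0.069) was not past the threshold.

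UBE2Q2, a large E2 with a long amino-terminal region, had the second lowest slope difference of the family. UBE2Q2 conversion in the sgCNOT3 libraries was 78.6 and 46.7% (0 h), 59.7 and 46.7% (1 h), 35.3 and 15.3% (2 h), 15.9 and 0.690% (4 h), 20.4 and 7.06% (8 h) and 2.67 and 4.72% (12 h). In sgNT, UBE2Q2 conversion was 50.4 and 37.3% (0 h), 51.6 and 31.9% (1 h), 20.9 and 18.7% (2 h), 30.6 and 35.4% (4 h), 7.97 and 12.8% (8 h) and 11.7 and 7.14% (12 h). For UBE2Q2, both sgCNOT3 libraries lay below both sgNT libraries at 4 and 12 h, and the genotypes overlapped at 0, 1, 2 and 8 h. The UBE2Q2 slope difference was -0.105 per hour (SE 0.102, adjusted p = 0.497) and its half-life was 1.83 h in sgCNOT3 and 4.90 h in sgNT, the shortest of the family in sgCNOT3. Whichever library was left out, the slope difference stayed between -0.136 and -0.0760 and was not called. The related UBE2Q1 had a half-life of 4.20 h in sgCNOT3 and 3.59 h in sgNT, the very large UBE2O, an E2 with ligase activity of its own, 3.97 h in sgCNOT3 and 3.49 h in sgNT, and UBE2W, which ubiquitylates amino termini, 4.07 h in sgCNOT3 and 3.91 h in sgNT.

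**Figure D4:**
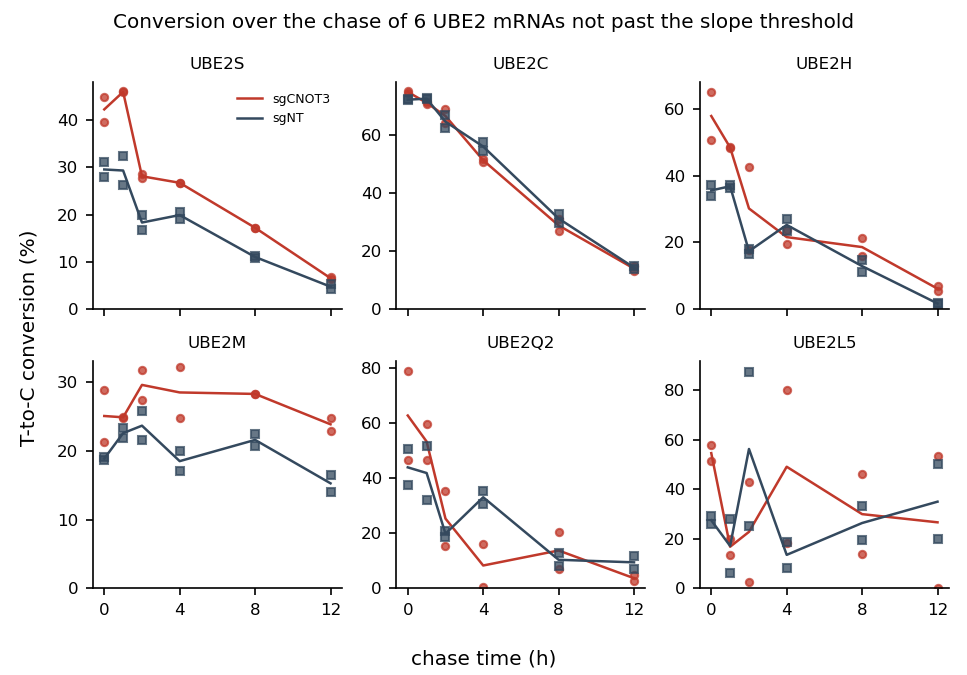
T-to-C conversion in percent against chase time in hours for 6 UBE2 mRNAs that were not called by slope; circles are sgCNOT3 libraries, squares sgNT libraries, and lines join the means of 2. Both sgCNOT3 libraries of UBE2S and UBE2M lie above both sgNT libraries at all 6 times, the curves of UBE2C lie close together, and UBE2L5 scatters without order by time; centred libraries put the slope differences of UBE2S, UBE2C and UBE2M below 0.

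Half-lives from a single exponential were kept for 30 members, and UBE2D4, UBE2L5 and UBE2NL exceeded the limit on the residual. The median was 7.28 h in sgCNOT3 and 5.66 h in sgNT, beside 7.40 and 5.62 h over the 7833 genes with a kept fit. The median log2 ratio of the members was 0.22 and that of all genes 0.22. The half-life was longer in sgCNOT3 for 22 of 30 members (73.3%, beside 63.1% of all genes), shorter for 7 (UBE2C, UBE2F, UBE2H, UBE2J1, UBE2Q2, UBE2S and UBE2V2) and at the limit in both for UBE2M. In fits of each replicate number alone, 18 of the 30 members were longer in both and 6 shorter in both. Over all 7833 genes these counts were 3724 and 1384. All 10 slower members were among the 18, but slopes fitted to these same libraries chose them. The ratio was highest for UBE2A (log2 1.16) and lowest for UBE2Q2 (log2 -1.42). With libraries scaled to the same median at each time the median log2 ratio of the members was 0, and without sgNT 0 h replicate 2 it was 0.37.

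**Figure D5:**
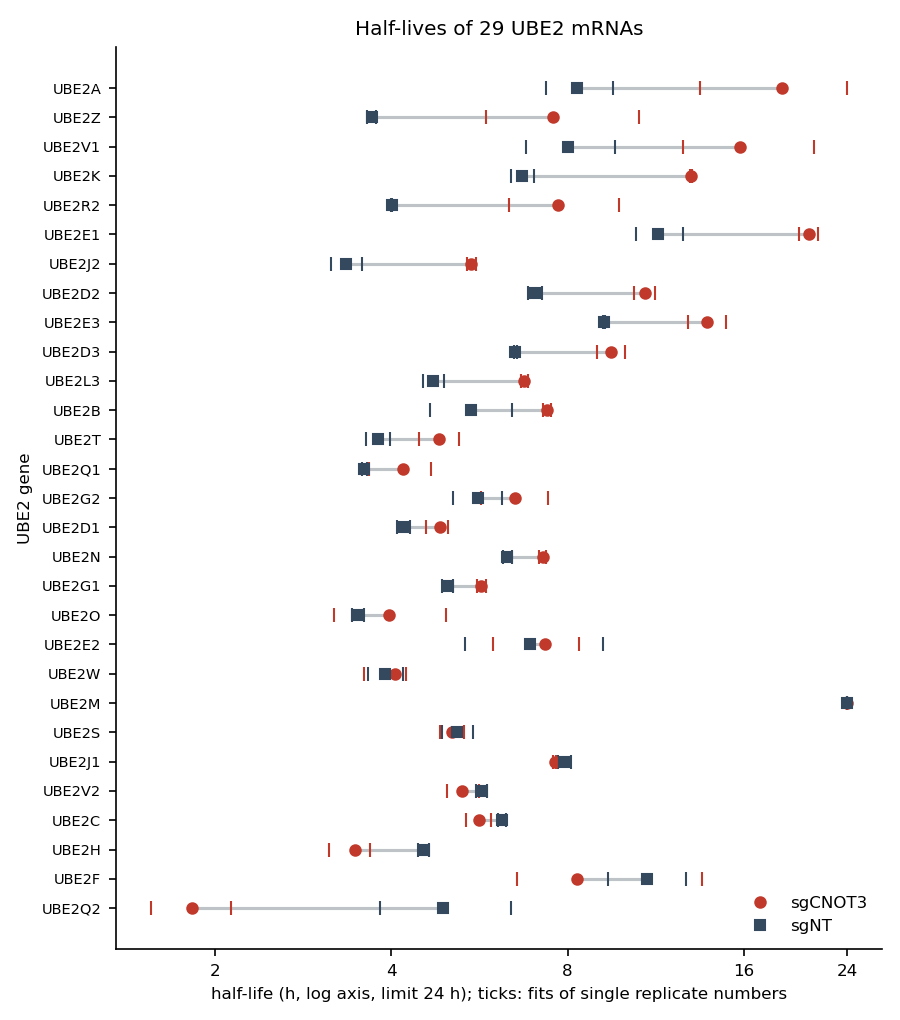
Fitted half-life in hours (log axis, limit 24 h) of 29 UBE2 mRNAs; circles are sgCNOT3, squares sgNT, and ticks the fits of each replicate number alone. The circle lies to the right of the square for 21 genes, and 63.1% of all genes with a kept fit were longer in sgCNOT3. Over all 30 kept fits of members the medians were 7.28 h in sgCNOT3 and 5.66 h in sgNT, beside 7.40 and 5.62 h over all genes. With libraries scaled to the same median the median log2 ratio of the members was 0.

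Paralogues were compared directly, since a call for one and not the other does not show that they differ. An exact permutation test over the 46656 ways to exchange genotypes within chase times was run, two-sided, for 15 pairs. Of these 0 passed after Benjamini-Hochberg adjustment over the 15 pairs, and 1 had an unadjusted p under 0.05. UBE2Q1 minus UBE2Q2 came closest, with 0.158 per hour (SE 0.113, exact permutation p = 0.0276, adjusted p = 0.354), followed by UBE2J1 minus UBE2J2 with -0.0511 (SE 0.0346, exact permutation p = 0.0522, adjusted p = 0.354) and UBE2V1 minus UBE2V2 with 0.0718 (SE 0.0250, exact permutation p = 0.0708, adjusted p = 0.354). For UBE2D2 minus UBE2D3 the difference was 0.0129 (SE 0.0124) and for UBE2A minus UBE2B 0.0081 (SE 0.0228). The pairs of UBE2D and UBE2E genes differed by at most 0.0158 in size. Each SE is that of scatter around fitted lines. The permutation exchanges whole libraries, so a genotype difference in level also widens its spread, and SE and p need not rank the pairs alike.

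Codon content was set against the slopes, since the study linked CGG, CGA and AGG codons to CNOT3. The study weighted these codons by their enrichment on CNOT3-bound ribosomes and compared sets of mRNAs over the transcriptome. It reported that high-scoring mRNAs were stabilized more when CNOT3 was lost. Its other evidence, from a reporter mRNA, in vitro translation, tRNA mutants and cryo-EM, has no counterpart here. The share used here is unweighted and covers only the 33 members, so it is not the same measure. The 10 slower members had a median CGG, CGA and AGG share of 2.52% (2.04 to 3.29%), and the 23 others one of 2.19% (1.04 to 5.26%). Across the 33 members the share and the slope difference had a Pearson r of -0.05 and a Spearman rho of 0.04, across genes that come from the same 24 libraries. Without UBE2L5 the Pearson r was 0.11 and the Spearman rho 0.12 (32 members), so the sign of Pearson r rested on that gene. UBE2B, the richest, had a slope difference near the median of all genes, and UBE2R2, with the highest slope difference, was at percentile 27.0 of all genes for these codons. UBE2S, at percentile 69.8, had a slope difference below 0 that was not called. UBE2A, at percentile 62.3 for these codons, was called slower. Its slope difference lay at percentile 54.0 of all genes, close to UBE2B at percentile 50.1. UBE2Q2, at percentile 8.53 for these codons, had the second lowest slope difference, which was not called. Whether these codons played a part was not tested.

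Other genes of the pathway were read from the same fit with libraries as deposited, and centred values were not computed for these lists. Their counts are to be read beside the 21.7% of all tested genes that were slower. Of the E1 enzymes, 1 of 9 measured was slower (ATG7, 0.248 per hour, SE 0.0504), and SAE1 of the SUMO E1 was lowest at 0.0062. UBA6, which loads UBE2Z and was named after its value was seen, had 0.125 (SE 0.0461, adjusted p = 0.0557). Of 7 other genes with an E2 fold, UFC1 was slower (0.0439, SE 0.0124), AKTIP had the highest value at 0.0451 and BIRC6 the lowest at -0.0287. Of 11 genes for ubiquitin and related modifiers, SUMO3 was lowest at -0.0159. Of 24 HECT ligases, HECTD4 (0.354, SE 0.0978) and UBE3A (0.187, SE 0.0399) were slower, and HECTD2 was lowest at -0.116. Of 10 RBR ligases, RBCK1 was slower (0.0987, SE 0.0309), with RNF217 highest at 0.174 and RNF14 lowest at -0.0258. The anaphase-promoting complex, the ligase of UBE2C and UBE2S, had 5 slower genes of 15, led by FZR1 (0.212, SE 0.0659), with ANAPC4 lowest at -0.0464. The cullin ligase core, which UBE2R2, UBE2G1, UBE2M and UBE2F serve, had 4 slower genes of 14, with CUL7 highest (0.429, SE 0.102) and DCUN1D5 lowest at 0.0084. In each of these lists 0 genes were faster, and the medians of their slope differences ran between 0.0073 (ubiquitin and related modifiers) and 0.0933 per hour (RBR ligases), on both sides of the 0.0581 of all tested genes.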

How the data were processed

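T-to-C conversion was measured by SLAM-seq (3' end libraries) in 24 libraries of HEK293T cells, 2 per genotype and chase time. The deposited values are fractions from 0 to 1, 1 per gene and library, which the authors computed from their reads and which are printed here as percent. The submitters' processing notes name bcl2fastq and GRCh38. The aligner, the conversion caller and whether the ratio counts reads or T positions remain not given in the sources used here, and no read counts come with the ratios, so the depth is unknown and no counting intervals were given. The replicates' files were not identical. A gene was kept if its ratio exceeded 0 in the 4 libraries at 0 h and in 20 or more of 24 (10731 of 19798). Log2(conversion + 0.34 percentage points, 1% of the median at 0 h) was fitted with limma 3.58.1 in R 4.3.3 (trend on, two-sided, Benjamini-Hochberg over all kept genes, threshold 0.05), as a genotype by time slope and as contrasts of the 12 group means. Fold differences on this scale understate the change of low genes. The contrasts at 1 and 2 h were added to those at 0, 4, 8 and 12 h. Half-lives were single exponentials with a fitted start, limited to 24 h and to a residual of at most 0.3, without a test. Paralogues were compared by an exact permutation test. Codons were counted in 1 coding sequence per gene of GENCODE release 44. pandas 2.3.3, scipy 1.17.1, numpy 2.4.6 and matplotlib 3.10.9 were run in Python 3.11.15, and the scripts were tested on simulated data. Alternatives were other pseudocounts, no filter, centred libraries, a replicate block, shorter chases and leaving out libraries. Values per library are given for members called by slope and for the 2 highest and 2 lowest slope differences, and pathway lists name their highest and lowest gene. The members and lists were chosen with earlier results of these data known. Of the genes counted in the totals, 1 family member and 1 pathway gene are not reported here.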

Additional observations from a re-analysis of the deposited data

Results flagged for a closer look

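For 10 members the genotype difference in log2 conversion changed between 0 and 12 h of the chase, in a limma test of that change with Benjamini-Hochberg adjustment over all tested genes. The change (12 h minus 0 h, sgCNOT3 minus sgNT) was 1.84 for UBE2R2, 1.41 for UBE2Z, 0.86 for UBE2V1, 0.83 for UBE2L3, 0.80 for UBE2A, 0.72 for UBE2T, 0.69 for UBE2D2, 0.67 for UBE2K, 0.63 for UBE2D3 and 0.60 for UBE2E1. These libraries also enter the slopes, so the changes are not independent of them, and 9 of the 10 members were also called slower (all but UBE2E1). Over all tested genes the change was called above 0 in 17.4% and below 0 in 0.615%, with a median of 0.62, beside 0.57 for the UBE2 members. With libraries centred on their medians 0 members were called in either direction. The count of 10 was 8 with a pseudocount of 10% of the median and ran between 5 and 12 when 1 library was left out. It was 5 without sgCNOT3 12 h replicate 2 (with 1 member below 0) or sgNT 0 h replicate 1, and 6 without sgCNOT3 0 h replicate 2 or sgNT 12 h replicate 2.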

How the results depend on the processing

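With libraries centred on their medians 1 member was slower and 3 were faster by slope, relative to the median gene. The slope differences of UBE2D2 (-0.0025), UBE2D3 (-0.0154), UBE2G1 (-0.0134), UBE2V1 (-0.00030), UBE2T (-0.0152), UBE2M (-0.0399), UBE2E1 (-0.0220) and UBE2B (-0.00727) then fell below 0. Centred time contrasts gave 0 lower members at 0 h, 0 higher and 0 lower at 4 h, 0 higher and 2 lower at 8 h, and 2 higher and 6 lower at 12 h. With chase times 0 to 4 h 0 members were slower and 0 faster by limma, the slope difference of UBE2Z was -0.00546, the slope difference of UBE2G1 -0.0107, that of UBE2H -0.210 and the slope difference of UBE2L5 0.127. With 0 to 8 h UBE2L5 was at 0.00021, UBE2S at 0.00262 and UBE2H at -0.0288. A pseudocount of 10% of the median gave 1 higher and 2 lower members at 0 h and 2 lower at 4 h. Replicate numbers did not pair the libraries (correlations of deviations -0.038 to 0.021), and the replicate block gave 9 slower members and 2 lower at 4 h. Leaving out a replicate number or a single library gave 0 to 14 slower members and 0 faster, 0 to 1 higher and 0 to 1 lower at 0 h, 0 to 1 higher and 1 to 2 lower at 4 h, 6 to 13 higher at 8 h, and 6 to 13 higher and 0 to 1 lower at 12 h. Over these, the slope difference of UBE2S ran between -0.0228 and 0.00473, of UBE2C between -0.0197 and 0.00248, and of UBE2L5 between -0.437 and 0.0214. The median log2 half-life ratio was 0.40 by a log-linear fit, 0.34 with 0 to 8 h, 0 with scaled libraries, 0.32 without both sgCNOT3 2 h libraries, and 0.19 to 0.37 over the leave-outs. The settings without both 2 h libraries, and with the start of the curve fixed at the 0 h mean (0.20), were chosen after seeing the data, and the slope count without both was 9. Of the 15 paralogue pairs 0 passed in the other settings run, leaving aside those without replicate 1 or 2, where 64 arrangements are too few for a single pair to pass. Time contrasts without a whole replicate number were not run, since each group then holds 1 library and no residual degrees of freedom remain. The causes were not tested. Depth is unknown, so how far low late values limit a call could not be read from the files.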
